A study of Mus musculus with 6 samples.

Results

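The genes described are 10 components of the junctions between endothelial cells, Cdh5, Cldn5, Esam, F11r, Jam2, Jam3, Tjp1, Pecam1, Cgn and Ocln. They were chosen by name, with earlier results of these data known, and all 10 were found among the 33697 genes of the count tables. The libraries hold cells of the intestinal lamina propria sorted as tdTomato+, among which lymphatic endothelial cells (LECs) and blood endothelial cells (BECs) stand beside a large majority of fibroblasts. The question asked of the data was which junction genes LECs carry, how this differs from BECs and from cells that form no vessel wall, and how it varies along the bowel.

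Endothelial cells seal a vessel wall through adherens junctions and tight junctions. VE-cadherin, the product of Cdh5, joins neighboring cells at adherens junctions, and claudin-5, the product of Cldn5, forms the strands of endothelial tight junctions. In the initial lymphatics, which include the lacteals of the villi, these proteins are arranged in separate button-like patches that let fluid and chylomicrons enter, whereas collecting lymphatics and most blood vessels have continuous zipper-like junctions. The other proteins are immunoglobulin-like adhesion molecules (Esam, F11r, Jam2, Jam3 and Pecam1), a scaffold that ties junctions to actin (Tjp1), and components best known from epithelial tight junctions (Cgn and Ocln).

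The animals were Flare-TSLP mice on the C57BL/6 background, in which tdTomato follows an internal ribosome entry site in the Tslp locus. The sort was for live cells with tdTomato fluorescence. The line goes back to a single embryonic stem cell targeting, and every library carries the reporter, with no treatment named in the labels and no reporter-negative library. Male and female animals of 8 to 12 weeks were used. There were 2 libraries of the proximal jejunum (proximal 1 and 2), 2 of the distal ileum (distal 1 and 2), 1 of the cecum and 1 of the large intestine. Each library pooled 3 hashtagged preparations. The hashtags are not tied to animals in the labels, so each library is 1 sample. The p-values rest only on the spread between libraries or, where cell classes of the same libraries are compared, on the spread of the within-library difference. Neither measures the spread between single animals.

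After filtering on genes, UMIs, mitochondrial share and doublets, 93558 cells were kept, 11174 to 19073 per library, with a median of 6606.5 to 9233 UMIs per cell (a UMI counts 1 captured RNA molecule). Any pair of libraries shared 36 to 100 cell barcodes, 0.217 to 0.597% of either. Cells were put in a class, called a gate, by UMIs of 6 marker genes per class, and none of the 10 junction genes was a marker. The LEC gate held 14697 cells, with 2368 and 5280 in the proximal libraries, 731 and 5850 in the distal libraries, 221 in the cecal and 247 in the large intestinal library. The BEC gate held 492, 190, 152, 205, 13 and 116 cells in the same order, and the cecum's 13 BECs were too few to be tested. The unit of level is CPM: the cells of a gate are summed within each library, and a gene's UMIs are scaled to a total of 1000000. The reads come from the 3′ end, so levels are compared between gates and libraries but not between genes.

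The gates were checked by their marker lists. The 6 LEC markers (Prox1, Flt4, Mmrn1, Lyve1, Ccl21a and Reln) summed to 16670 to 22570 CPM in the LEC gate, against 63.5 to 300.2 in the BEC gate and 13.6 to 145.2 in the fibroblast gate. The 6 BEC markers (Flt1, Plvap, Emcn, Rgcc, Gpihbp1 and Ly6c1) summed to 8469 to 9445 in the BEC gate and to 717.5 to 1066 in the LEC gate. Most of the latter came from Emcn and Gpihbp1, while Flt1, the defining blood vascular receptor, stood at 2.12 to 4.23 in LECs. Gpihbp1 ran against its list, with overlapping ranges of 214 to 344 in LECs and 46.2 to 238 in BECs (means of 267 and 116), while the other 5 markers were higher in BECs.

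The 300 bases before the transcript start are shown for 3 genes, because these 3 separate the endothelial classes in the levels below: Cldn5 leaned to LECs, and Esam and Jam2 leaned strongly to BECs. They were read from the GRCm39 genome at the start of the canonical GENCODE vM39 transcript, at chr16:18595297-18595596 (plus strand), chr9:37439044-37439343 (plus strand) and chr16:84570492-84570791 (plus strand). Capitals mark GGAA or its reverse complement TTCC, the core bound by ETS-family factors. GGAA was found 3 times before Esam, 2 times before Jam2 and 0 times before Cldn5. A core bound by SOX-family factors, AACAAT or its reverse complement ATTGTT, was found 0 times in all 3. Of 21770 promoters of this length, 96.4% held GGAA, with a median of 3 matches, and 12.0% held AACAAT. The matches are descriptions of letters in this window only.
Cldn5: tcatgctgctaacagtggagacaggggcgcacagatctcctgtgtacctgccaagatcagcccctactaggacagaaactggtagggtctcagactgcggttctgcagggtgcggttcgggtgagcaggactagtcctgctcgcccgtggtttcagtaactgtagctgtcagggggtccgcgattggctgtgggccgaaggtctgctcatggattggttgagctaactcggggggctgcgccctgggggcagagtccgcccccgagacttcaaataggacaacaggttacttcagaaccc
Esam: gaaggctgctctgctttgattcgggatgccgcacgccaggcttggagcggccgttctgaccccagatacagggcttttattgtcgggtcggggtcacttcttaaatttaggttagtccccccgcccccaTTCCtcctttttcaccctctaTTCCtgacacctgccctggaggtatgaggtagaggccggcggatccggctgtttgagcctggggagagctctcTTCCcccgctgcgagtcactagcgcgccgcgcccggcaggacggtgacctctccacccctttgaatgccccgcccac
Jam2: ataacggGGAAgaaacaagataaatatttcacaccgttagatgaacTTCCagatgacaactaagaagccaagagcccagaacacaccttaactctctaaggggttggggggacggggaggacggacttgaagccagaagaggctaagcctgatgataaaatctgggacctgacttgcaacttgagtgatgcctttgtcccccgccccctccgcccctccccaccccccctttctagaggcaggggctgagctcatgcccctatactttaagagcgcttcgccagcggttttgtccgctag

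LECs carried the adherens component Cdh5, the tight-junction genes Cldn5, F11r and Tjp1 and the adhesion gene Pecam1 in every library, all 5 above fibroblasts. Esam, Jam2 and Jam3 were low in LECs and high in BECs, and Cgn and Ocln were near 0 in both. Of the 10 genes, 8 had enough UMIs to be tested between LECs and fibroblasts, and all 8 differed, 6 higher and 2 lower, at an adjusted p under 0.05 (edgeR's quasi-likelihood test, Benjamini-Hochberg over all genes). Among all 19834 genes tested, 66.3% differed, 30.2% higher and 36.0% lower, so a call by itself says little here, and the levels are given for each library.

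Cdh5 (chr8:104828231-104871143, plus strand, GRCm39) stood in LECs at 539 and 521 in the 2 proximal libraries, 469.7 and 527 in the 2 distal libraries, 339 in the cecal and 345 in the large intestinal library. In fibroblasts it lay at 0.186 to 5.60 CPM, so no LEC library came near the fibroblast range. The difference was 8.16 ± 0.58 on the log2 scale (SE; n = 6 libraries; adjusted p = 3.24e-06 by edgeR). Fibroblast Cdh5 was highest in distal 2 and lowest in the cecum, the libraries in which its level in near-empty barcodes (free RNA) was also highest and lowest, at 158 and 6.41. When free RNA was taken as 10% of every sum and subtracted, fibroblast Cdh5 was 0 in 6 of 6 libraries and the fitted difference was 17.62, a value that depends on the prior count of the fit and gives no size.

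Cldn5 (chr16:18595597-18597012, plus strand) stood in LECs at 628 and 738 in the 2 proximal libraries, 714 and 560.0 in the 2 distal libraries, 1207 in the cecal and 1041.5 in the large intestinal library. Fibroblasts held 0.383 to 5.15, and the difference was 8.77 ± 0.78 (log2, SE; n = 6; adjusted p = 1.35e-05 by edgeR). Pecam1, an adhesion molecule at the borders of endothelial cells and also on leukocytes and platelets (chr11:106543689-106641454, minus strand), stood in LECs at 553 and 584 in the 2 proximal libraries, 522 and 590.1 in the 2 distal libraries, 592 in the cecal and 621 in the large intestinal library, against 1.75 to 8.59 in fibroblasts (difference 7.07 ± 0.36, adjusted p = 3.65e-07). For each of Cdh5, Cldn5 and Pecam1, LECs were above fibroblasts in all 6 libraries. After the same subtraction fibroblast Cldn5 was 0 in 6 libraries and Pecam1 in 5, with fitted differences of 18.40 and 14.36. The 5 platelet markers summed to at most 3.38 in LECs.

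F11r, which encodes JAM-A (chr1:171265092-171292958, plus strand), stood in LECs at 263 and 282 in the 2 proximal libraries, 246 and 319 in the 2 distal libraries, 306 in the cecal and 318 in the large intestinal library, a narrow range, against 8.27 to 27.7 in fibroblasts (log2 difference 4.25 ± 0.20, SE, n = 6, adjusted p = 2.68e-07 by edgeR). Tjp1, which encodes the scaffold ZO-1 (chr7:64945898-65177529, minus strand), stood at 276 and 279 in the 2 proximal libraries, 251 and 315 in the 2 distal libraries, 238 in the cecal and 240.3 in the large intestinal library. It was also plain in fibroblasts, at 61.5 to 129.7, and its difference of 1.44 ± 0.09 was the smallest among the genes higher in LECs. Tjp1 shares its strand with the annotated genes Gm44794 and Gm44792, and Jam2 with Gm54844, so reads in the overlaps could be assigned to either.

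Jam2, which encodes JAM-B, went the other way (chr16:84570764-84623269, plus strand). Its LEC level was 1.62 and 0.961 in the 2 proximal libraries, 0.212 and 1.02 in the 2 distal libraries, 0 in the cecal and 0.473 in the large intestinal library, while fibroblasts held 29.1 to 80.1 (log2 difference −5.36 ± 0.24, SE, n = 6, adjusted p = 1.73e-07 by edgeR). In the cecum, 0 of 1182023 LEC UMIs were Jam2, which allows up to 3.12 (95% exact Poisson bound). The LEC level stayed below that of the free RNA in every library, which was 23.2 to 70.5. With free RNA subtracted LEC Jam2 was 0 in 6 of 6 libraries, and the fitted differences were −14.10 from fibroblasts and −14.41 from BECs. Jam3, which encodes JAM-C (chr9:27005652-27066915, minus strand), was 6.20 and 7.48 in the 2 proximal libraries, 9.13 and 7.88 in the 2 distal libraries, 18.6 in the cecal and 23.6 in the large intestinal library in LECs and 26.5 to 47.3 in fibroblasts, a difference of −2.02 ± 0.27 (adjusted p = 0.000202).

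Esam, an adhesion molecule of endothelial tight junctions and platelets (chr9:37439344-37449615, plus strand), was near its fibroblast level in small intestinal LECs but not in those of the large bowel. LECs held 4.46 and 3.39 in the 2 proximal libraries, 2.12 and 3.73 in the 2 distal libraries, 44.8 in the cecal and 16.6 in the large intestinal library, and fibroblasts 1.08 to 2.68. The ranges of the gates overlapped, although LECs were higher within all 6 libraries, and the difference was 1.92 ± 0.65 (log2, SE; n = 6; adjusted p = 0.0276 by edgeR). Without the large intestine it was 1.54 with an adjusted p of 0.0545, which no longer passed, and without the cecum it was 1.28 (adjusted p = 0.0289). With free RNA subtracted Esam was 0 in fibroblasts of 5 libraries and in LECs of 2, and the fitted difference was 7.94 (adjusted p = 0.000714). Cgn, which encodes the tight-junction scaffold cingulin (chr3:94667376-94695136, minus strand), gave 5 UMIs in all LEC sums together, and occludin's gene Ocln (chr13:100630334-100689535, minus strand) gave 9.

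**Figure D1:**
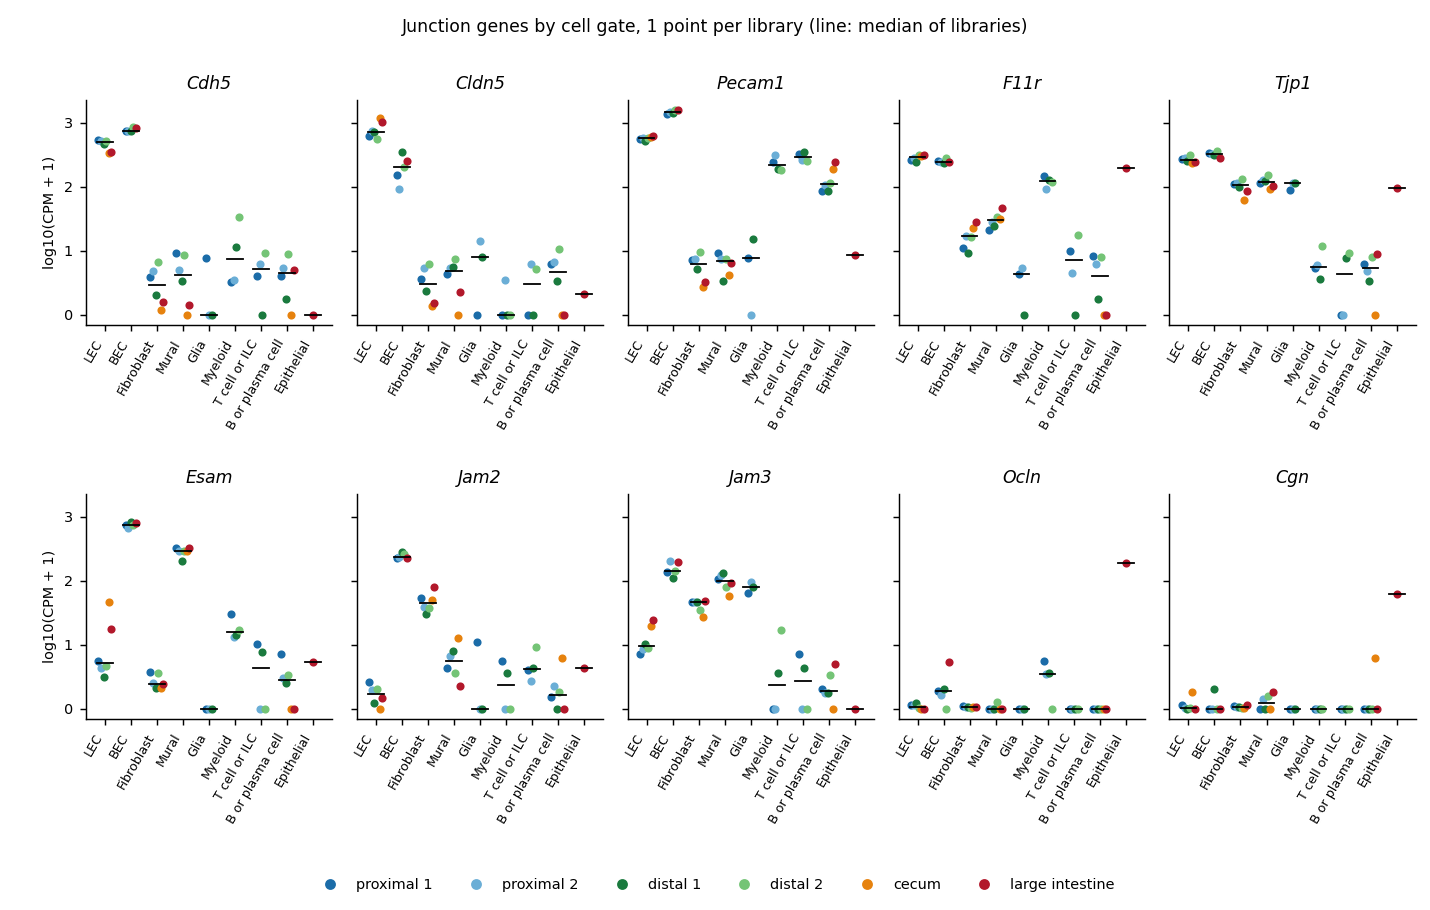
Levels of the junction genes in each cell gate, as log10(CPM + 1), with a point for each library with at least 20 cells in the gate and a line at their median. Cdh5 and Cldn5 stand apart in LECs and BECs, Pecam1 is also found in the immune gates, and Tjp1 is spread over all stromal gates. Jam2 in LECs lies at 1.62 CPM or less, before the log scale.

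BECs carried all 8 of these genes above fibroblasts, Jam2, Jam3 and Esam included. Among the 9 members tested between BECs and fibroblasts in 5 libraries, 9 were higher, against 20.7% higher and 35.1% lower among all 18924 genes tested. The log2 differences were 8.63 ± 0.26 for Esam, 8.38 ± 0.51 for Cdh5, 8.09 ± 0.30 for Pecam1, 6.28 ± 0.62 for Cldn5, 4.05 ± 0.22 for F11r, 2.37 ± 0.21 for Jam2, 1.72 ± 0.14 for Jam3 and 1.49 ± 0.09 for Tjp1. With free RNA subtracted, fibroblast Esam, Cdh5, Pecam1 and Cldn5 were at 0 in these 5 libraries, and the fitted values rose to 18.18, 18.22, 19.14 and 16.31. The remaining gene was Ocln, whose call rested on 10 UMIs in the BEC sums, whose ranges overlapped, and whose difference was 3.33 to 4.45 when each library was left out in turn.

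Set against each other within the same 5 libraries, LECs and BECs differed in 7 of the 8 members tested, 1 higher in LECs and 6 lower, against 56.1% of all 12298 genes tested (27.6% higher and 28.5% lower). Cldn5 was the gene higher in LECs. Its BEC level was 153 and 92.4 in the 2 proximal libraries, 351 and 202 in the 2 distal libraries and 256 in the large intestine, and the LEC level was 4.09, 7.99, 2.03, 2.78 and 4.07 times that of the BECs of the same library. The ranges did not overlap, with a log2 difference of 1.78 ± 0.23 (SE; n = 5; adjusted p = 0.000104 by edgeR). With a stricter gate, which kept 441, 154, 132, 166 and 86 BECs in the same library order, the difference was 3.22 (adjusted p = 1.31e-06). The direction was kept, but the size of the Cldn5 difference depended on how many markers a cell needed for its gate. BECs of the proximal libraries had the lowest Cldn5 and those of distal 1 the highest.

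Cdh5 was higher in BECs, at 749 and 746 in the 2 proximal libraries, 753 and 849.8 in the 2 distal libraries and 844 in the large intestine, or 1.39, 1.43, 1.60, 1.61 and 2.44 times the LEC level of the same library. The difference of LECs from BECs was −0.84 ± 0.12 (log2, SE; n = 5; adjusted p = 0.000239 by edgeR). Pecam1 in BECs was 1399 and 1492 in the 2 proximal libraries, 1422 and 1565 in the 2 distal libraries and 1571.5 in the large intestine, 2.53 to 2.72 times the LEC level, a ratio that hardly moved from library to library (log2 difference −1.49 ± 0.07, adjusted p = 7.03e-08).

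The widest gaps between the endothelial classes were in Esam, Jam2 and Jam3. Esam in BECs was 751 and 666 in the 2 proximal libraries, 837 and 732 in the 2 distal libraries and 802 in the large intestine, against at most 16.6 in LECs of these libraries, a log2 difference of −7.46 ± 0.31 (SE; n = 5; adjusted p = 2.26e-08 by edgeR). Jam2 in BECs was 223 and 235 in the 2 proximal libraries, 277 and 265 in the 2 distal libraries and 228 in the large intestine, and the difference was −7.96 ± 0.22 (adjusted p = 1.42e-09). Jam3 in BECs was 133 and 201 in the 2 proximal libraries, 109 and 139.9 in the 2 distal libraries and 194 in the large intestine, with a difference of −4.20 ± 0.21 (adjusted p = 7.67e-08). In none of the 3 genes did a LEC library reach the lowest BEC library.

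Tjp1 and F11r were close to equal in the endothelial classes. Tjp1 was 284 to 358 in BECs, 1.14 to 1.25 times the LEC level in each library, with overlapping ranges (log2 difference −0.36 ± 0.07, SE, n = 5, adjusted p = 0.00225 by edgeR). With no filter on low counts the Tjp1 difference was −0.22 and did not pass (adjusted p = 0.120), and with a stricter gate it was −0.23 (adjusted p = 0.0278). F11r was 237 to 283 in BECs and higher in LECs by this measure in 5 of 5 libraries, but the fitted difference was 0.07 ± 0.08 with an adjusted p of 0.515. Scaling by total UMIs in place of TMM moved the median of all genes in this comparison from 0.02 to 0.12, and the calls and directions of the 8 members were kept.

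**Figure D2:**
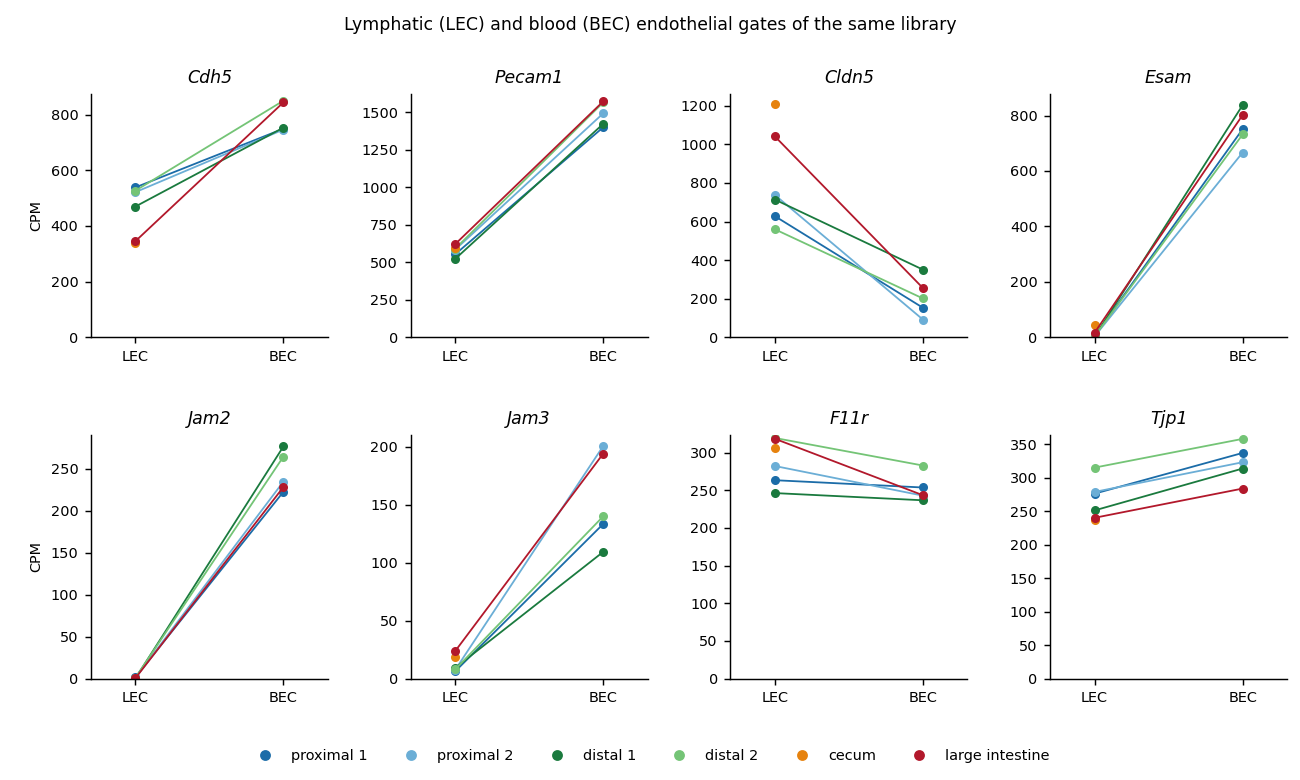
Levels of 8 junction genes in LECs and BECs of the same library, in CPM on linear axes from 0, with lines joining the gates of a library and no cecum BECs (13 cells). Cldn5 is lower in BECs in all 5 libraries, and Esam, Jam2 and Jam3 are far higher in them.

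The same split was seen cell by cell. A Cdh5 UMI was found in 77.4 to 94.8% of LECs per library, a Cldn5 UMI in 88.7 to 95.5%, a Pecam1 UMI in 90.0 to 98.0%, an F11r UMI in 72.9 to 83.0% and a Tjp1 UMI in 65.2 to 78.1%. In fibroblasts, which form no vessel wall and came from the same droplet runs, the shares were 0.133 to 4.98% for Cdh5 and 0.265 to 4.67% for Cldn5. Median depth was 4571 to 7340 UMIs per cell in LECs and 6678 to 9864 in fibroblasts. Averaged over the 10 genes, the share of LECs with a UMI was 44.0% (median of 6 libraries), and 32.2% after each cell was thinned to 2500 UMIs.

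All 5 of Cdh5, Cldn5, F11r, Tjp1 and Pecam1 were found together in 38.0 to 57.1% of LECs of a library, and at least 4 of them in 71.0 to 87.9%. In BECs of the 5 larger sums, all 5 were found together in 11.1 to 30.2%. Of these 5, Cldn5 was the one most often missing from BECs, with a UMI in 14.4, 13.2, 19.7, 27.3 and 37.1% of BECs of the proximal, distal and large intestinal libraries. Esam had a UMI in 94.5 to 98.3% of BECs. Jam2 had a UMI in 64.2 to 81.0% of BECs and 0 to 1.06% of LECs.

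Cldn5 in BECs was thus detected in a minority of cells, 71, 25, 30, 56 and 43 cells in the proximal, distal and large intestinal libraries. These were also the deeper cells, with a median of 6286 to 11757 UMIs against 5026.5 to 6949 in BECs without a Cldn5 UMI, so the split is given as a description with no test. Jam3 was lower in the cells with Cldn5, at 57.2, 108, 25.4, 63.0 and 119 CPM against 155, 221, 148, 178 and 259 in those without. Flt1, a receptor that marks capillaries and other blood vessels, was 2091, 2846, 1327, 2626 and 1543 against 3859, 4616, 3606, 4477.5 and 3380.3. Cdh13, which encodes T-cadherin, was 224, 587, 197, 672 and 582 against 92.1, 178, 159.8, 181 and 284. In each of the 5 libraries the BECs with a Cldn5 UMI therefore had less Jam3 and Flt1 and more Cdh13. Cdh5 and Tjp1 were also higher in them in 5 of 5 libraries, and Esam was lower in 5 of 5. How many of all genes went the same way in 5 of 5 libraries was not counted. Cells with several hashtags made up 3.16 to 8.33% of BECs in these libraries, and the split was not repeated without them. Flt1 is itself a marker of the BEC gate, so its levels in gated cells depend in part on the gate. In proximal 2 the BEC level of Cldn5, 92.4, also lay under that of the free RNA, 195.

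**Figure D3:**
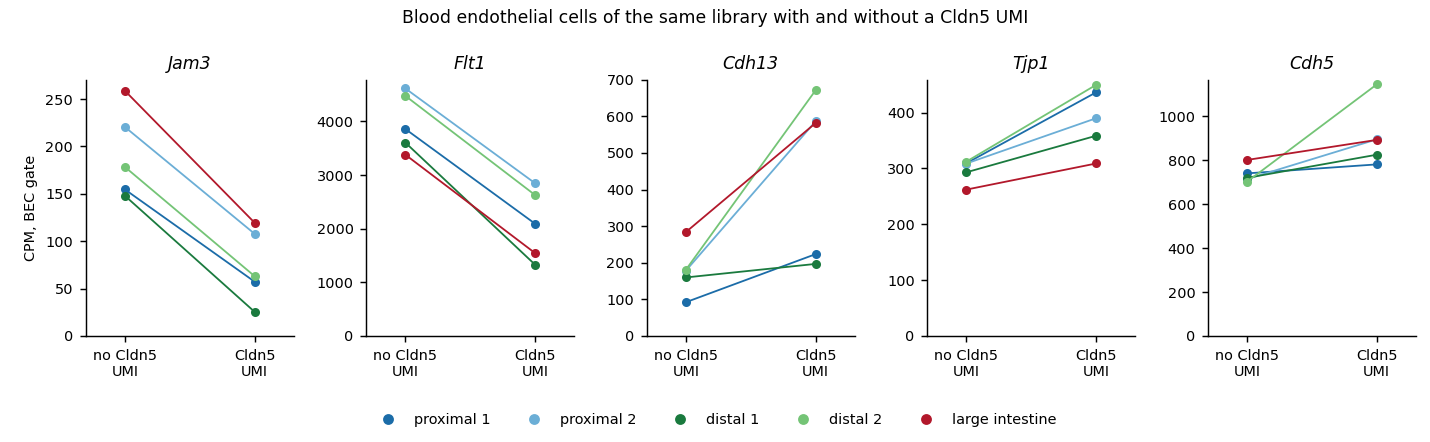
Levels of junction and vascular genes in BECs with and without a Cldn5 UMI, in CPM on linear axes from 0, with lines joining the cells of a library, for the 5 libraries with at least 20 BECs. Jam3 and Flt1 are lower and Cdh13 is higher in the cells with Cldn5 in each library.

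Along the small intestine no difference in the LEC levels of the members was detectable. Between the distal and proximal libraries, 0 of the 8 members tested differed, and 0.00% of 15288 genes did so (0 by edgeR and 0 by limma; 31 by DESeq2; 588 at an unadjusted p under 0.05). The log2 differences, distal minus proximal, were −0.11 ± 0.15 for Cdh5, −0.12 ± 0.19 for Cldn5, −0.05 ± 0.16 for Pecam1, 0.04 ± 0.16 for F11r and 0.01 ± 0.16 for Tjp1 (SE, n = 2 and 2). Esam was −0.28 ± 0.31, Jam2 −0.59 ± 0.53 and Jam3 0.25 ± 0.21. The libraries of Jam3 did not overlap between the regions, but it did not pass. How many of all genes separate in this way with 2 libraries on each side was not counted, so the separation does not set Jam3 apart. The fit had few libraries, and a difference inside these errors was not detectable.

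Between the large bowel (cecum and large intestine, 1 library each, set as a single group) and the small intestine, 4 of the 8 members tested differed in LECs, against 20.0% of 13807 genes. Esam, Jam3 and Cldn5 were higher in the large bowel, as were 9.75% of all genes, and Cdh5 was lower, as were 10.3%. The LEC levels of each library are those given above. No large bowel library of these 4 genes fell within the range of the 4 small intestinal libraries. The same held for Pecam1 and Tjp1, which did not pass. How many of all genes separate in this way was not counted, so the separation by itself does not set the 4 genes apart.

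Esam changed most, from 2.12 to 4.46 CPM in the small intestine to 44.8 in the cecal and 16.6 in the large intestinal library, a log2 difference of 3.00 ± 0.39 (SE; n = 2 and 4; adjusted p = 0.000731 by edgeR). It was 2.13 without the cecum (adjusted p = 0.0136) and 3.59 without the large intestine. With free RNA subtracted it was 5.56 (adjusted p = 0.000926), with 2 of the LEC sums at 0. Both large bowel levels stayed far below the 666 to 837 of BECs in the 5 libraries tested. The large intestinal level lay under that of its free RNA, 28.6, as did the small intestinal levels, with free RNA at 20.4 to 62.0. Only the cecal level lay above its free RNA, at 7.88. A UMI of Esam was found in 37 of 221 cecal LECs (16.7%, 95% exact binomial interval 12.1 to 22.3%) and in 27 of 247 of the large intestine (10.9%, 7.33 to 15.5%), against 1.37 to 2.87% in the small intestine and 0.712 and 1.12% in fibroblasts of the same 2 libraries. Thinned to 2500 UMIs, the shares were 9.13 and 3.86%, against 0.560 to 1.14% in the small intestine. The intervals cover counting error only.

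The LECs with an Esam UMI were set beside the other LECs of the cecum and the large intestine. Lyve1, a hyaluronan receptor of initial lymphatics, was 3034.5 and 4045 in them and 4089.8 and 3786 in the others. Of the 6 BEC markers, Flt1 was 0 and 3.25 against 5.27 and 3.32, Rgcc 0 and 0 against 1.05 and 2.21 and Ly6c1 8.57 and 0 against 1.05 and 6.64. Emcn was 561 and 458 against 470.1 and 366 and Gpihbp1 236 and 247 against 371 and 255. Plvap, a component of the diaphragms of fenestrated endothelium and of lymphatic endothelium, was 163 and 182 against 86.4 and 55.4. Jam2, which was high in BECs, was 0 and 0 against 0 and 0.554, and Cldn5 1376 and 1428 against 1166 and 976. In the LEC sums of all 6 libraries together, Flt1 had 303 UMIs, Rgcc 338, Ly6c1 142 and Jam2 101. A level of 0 for these genes in so few cells therefore does not show that their RNA is absent. The LEC gate itself asked for LEC markers and barred cells that passed the BEC gate, so the levels in the cells with and without an Esam UMI are a description. Over all LECs, Plvap moved with Esam, from 10.1 to 13.2 in the small intestine to 102 and 73.8 in the cecum and the large intestine, and its part in the Esam difference was not tested. In the same order Rgs5, a pericyte gene, was 12.8 to 36.5 and then 3.38 and 5.68. Acta2, of the same mural list, was 10.4 to 21.8 and then 9.31 and 30.3. Myh11 was 1.70 to 6.55 and then 0 and 1.89, and Des 1.70 to 3.24 and then 2.54 and 0.473. Mural RNA as a source of Esam was not tested beyond the alternative that follows. When LECs with any UMI of Flt1, Rgcc, Rgs5, Notch3, Myh11 or Des were left out, an alternative added after the data were seen that left Plvap, Emcn, Gpihbp1, Ly6c1, Acta2 and Kcnj8 out of account, Esam was 37.4 and 17.9 in the 211 and 220 LECs that remained, with a log2 difference of 2.93 (adjusted p = 0.000403). Acta2 was 10.0 and 31.5 in these remaining LECs.

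Jam3 was higher in large bowel LECs by 1.49 ± 0.22 (log2, SE; adjusted p = 0.00154 by edgeR), and Cldn5 by 0.75 ± 0.16 (adjusted p = 0.0106). The LEC level of Jam3 stayed below that of the free RNA, 22.2 to 41.1, in every library. With free RNA subtracted, LEC Jam3 was at 0 in 0 of 6 libraries. Cdh5 was lower, with a difference of −0.61 ± 0.13 (adjusted p = 0.0113). Part of these calls rested on a single large bowel library. Without the cecum, Cldn5 was 0.58 and did not pass (adjusted p = 0.110), and without the large intestine Cdh5 was −0.65 (adjusted p = 0.0533). The cecal and large intestinal libraries share a hashtag set with proximal 1 and distal 1. Within that set the differences were 2.96 for Esam, 1.57 for Jam3 and 0.77 for Cldn5, which passed, and −0.54 for Cdh5, which did not (adjusted p = 0.0887).

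Pecam1, F11r and Tjp1 did not pass in this comparison, with log2 differences of 0.09 ± 0.13, 0.15 ± 0.14 and −0.25 ± 0.13 (adjusted p = 0.657, 0.468 and 0.202 by edgeR). Jam2 was −1.81 ± 1.35 on very few UMIs (adjusted p = 0.366), and −7.35 without the large intestine (adjusted p = 0.413). Cdh5 and Cldn5, the defining genes of the adherens and the tight junction, thus went in opposite directions in the large bowel. Fewer LECs lay behind the large bowel sums, and LEC depth was lowest in the cecum (median of 4571 UMIs) and highest in the large intestine (7340).

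**Figure D4:**
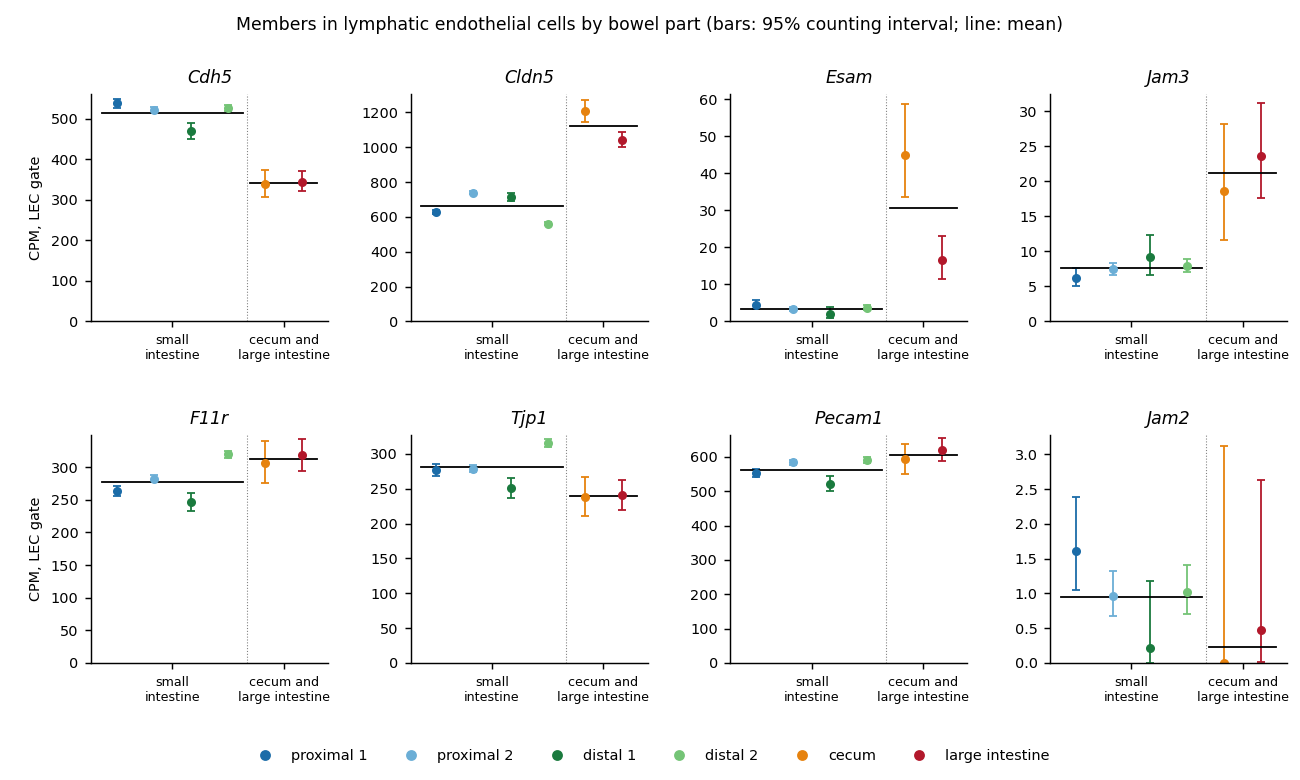
LEC levels of the junction genes by library, in CPM on linear axes from 0, with 95% Poisson intervals that cover counting error only and lines at the mean of each bowel part. Esam and Jam3 are higher in the cecum and the large intestine than in the 4 small intestinal libraries, and Cdh5 is lower.

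Whether the LEC difference from fibroblasts itself differs along the bowel was tested by the interaction of gate and bowel part. Of the 8 members tested, 5 passed, 4 higher and 1 lower, against 9.55% of 19834 genes (3.54% higher and 6.01% lower). The LEC excess over fibroblasts was larger in the large bowel for Esam, Cldn5 and Pecam1. Their values were 3.55 ± 0.47, 3.38 ± 0.55 and 1.60 ± 0.20 (log2, SE, n = 2 and 4). The excess was smaller there for F11r, with a value of −0.95 ± 0.18. Jam3 was lower in LECs than in fibroblasts in every library. Its value of 1.54 ± 0.27 means that this deficit was smaller in the large bowel. The values for Cdh5, Tjp1 and Jam2 were 2.25 ± 0.64, 0.32 ± 0.13 and −2.71 ± 0.89 and did not pass (adjusted p = 0.0629, 0.158 and 0.101 by edgeR). The fibroblast levels also differed between libraries. Their F11r was 10.2 and 15.8 in the 2 proximal libraries, 8.27 and 15.8 in the 2 distal libraries, 21.6 in the cecal and 27.7 in the large intestinal library, and their Pecam1 was 6.11 and 6.37 in the 2 proximal libraries, 4.18 and 8.59 in the 2 distal libraries, 1.75 in the cecal and 2.32 in the large intestinal library. Without the cecum the interaction was 2.66 for Esam, which passed, and 3.08 for Cldn5 and 1.39 for Jam3, which did not (adjusted p = 0.0646 and 0.0661). Without the large intestine it was 4.30 for Esam, which passed, and 1.69 for Jam3 and −0.92 for F11r, which did not (adjusted p = 0.0906 and 0.0518).

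Free RNA moved with these fibroblast values. Pecam1 in near-empty barcodes was 135.5, 169, 52.4, 175, 12.1 and 39.9 in the order of the libraries above, and Cldn5 was 82.7, 195, 33.6, 166, 21.7 and 33.0. With the free RNA subtracted from every sum, the interaction was −6.70 for Pecam1, 0.67 for Cldn5 and 0.41 for Esam, and none of these 3 passed (adjusted p = 0.227, 1.00 and 0.830). Fibroblast Cldn5 was then 0 in 6 of 6 libraries, and Pecam1 and Esam in 5. These 3 values therefore depend on the prior count of the fit, and the subtraction cannot decide on the interaction of these genes. F11r and Jam3 passed in that setting, at −1.91 and 2.10. Of all genes called in this comparison 37.1% were higher, and 52.0% when scaled by total UMIs in place of TMM.

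A list of 56 other junction genes was read beside the members. It too was chosen with earlier results of these data known, so its shares beside those of all genes are a description. Between LECs and fibroblasts 50 were tested and 38 passed, 26 higher and 12 lower, which is 76% beside the 66.3% of all genes, with a median log2 difference of 0.50 beside −0.07 over all genes. Among those higher in LECs were Icam2, an intercellular adhesion molecule (99.5 to 153 CPM against 0.135 to 1.42), Ptprb, which encodes VE-PTP, the phosphatase that acts on VE-cadherin (283 to 558.5 against 0.674 to 5.67), and Gja4, which encodes connexin 37 (53.9 to 131 against 0.520 to 1.20). Cldn4 had fewer UMIs but also stood apart, at 1.69 to 36.9 against 0 to 0.360. Lower in LECs were Cdh11, the mesenchymal cadherin-11 (9.66 to 18.4 against 254 to 518), Sdc4 (4.85 to 23.2 against 162 to 315), and, at low levels, Cldn10 and Ildr2.

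Between BECs and fibroblasts 48 were tested and 34 passed, 23 higher and 11 lower, or 70.8% beside 55.9% of all genes, with a median of 1.15 beside −0.32 over all genes. Ptprb was 1375 to 1995.5 in BECs, Icam2 103 to 238, Mcam, which encodes CD146, 155 to 302, and Gja5, which encodes connexin 40 of arterial endothelium, 5.80 to 21.1 against 0.104 to 0.146 in fibroblasts. Cdh11 (3.53 to 12.3 in BECs) and Cldn10 were lower, and Cldn1 gave 0 UMIs in BECs against 0.400 to 6.50 in fibroblasts.

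LECs and BECs differed in most of the listed genes. Of 42 tested, 37 passed, 18 higher in LECs and 19 lower, or 88.1% beside 56.1% of all genes, with a median of −0.23 beside 0.02 over all genes. Pard6g, a PAR-6 polarity protein of tight junctions, was 715 to 799 in LECs and 1.98 to 7.98 in BECs (log2 difference 7.39 ± 0.20, SE, n = 5, adjusted p = 1.42e-09 by edgeR). Cldn4 was 7.57 to 36.9 against 0 to 2.18 and Cldn11 7.51 to 13.3 against 0 to 0.725. The genes lower in LECs were led by Cldn15 (0.473 to 0.762 against 7.86 to 16.8), Mcam (11.5 to 19.4 against 155 to 302), Cd34 (9.38 to 50.6 against 348 to 578.5) and Gja5, which reached at most 0.0646 in LECs. So LECs had more Cldn5, Cldn4 and Cldn11 and less Cldn15 than BECs.

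Along the small intestine 0 of the 42 list genes tested passed. Between the large bowel and the small intestine 39 were tested and 12 passed in LECs, 5 higher and 7 lower, or 30.8% beside 20.0% of all genes, with a median of −0.16 beside −0.02 over all genes. Cdh13 in LECs was 11.2 and 15.1 in the 2 proximal libraries, 29.9 and 22.4 in the 2 distal libraries, 162 in the cecal and 216 in the large intestinal library. In fibroblasts it was 8.78 and 6.15 in the 2 proximal libraries, 8.73 and 6.93 in the 2 distal libraries, 79.7 in the cecal and 148 in the large intestinal library, so both gates had more of it in the large bowel libraries. Marveld1, a MARVEL-domain junction protein, was also higher in the large bowel, by 0.89 ± 0.16 (log2, SE). Sdc4 passed as well, but its LEC level of 4.85 to 9.98 in the small intestine and 22.0 and 23.2 in the cecum and the large intestine lay under 10% of that in free RNA in all 6 libraries, and Sdc4 was also higher there in fibroblasts, at 315 and 282, and in free RNA, at 272 and 246.

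Lower in the large bowel were Cldn4, at 36.9 and 31.0 in the 2 proximal libraries, 36.3 and 23.3 in the 2 distal libraries, 1.69 in the cecal and 7.57 in the large intestinal library, and Nectin3, an adherens-junction adhesion molecule, at 118 and 80.7 in the 2 proximal libraries, 99.6 and 88.9 in the 2 distal libraries, 28.8 in the cecal and 29.3 in the large intestinal library. Nectin3 was also lower in fibroblasts of the cecum and the large intestine, at 40.4 and 58.4 against 66.0 to 108 in the small intestine. Its LEC levels in these 2 libraries lay under those of free RNA, which were 36.2 and 53.4. Magi3 and Ctnnd1, which encodes the p120 catenin that binds VE-cadherin, were lower with differences of −0.81 ± 0.20 and −0.71 ± 0.14 (log2, SE; adjusted p = 0.0190 and 0.00731 by edgeR). The Ctnnd1 levels of the large bowel libraries were also lower in fibroblasts, at 92.7 and 129.8 against 139 to 187 in the small intestine, and in BECs, at 271 in the large intestine against 425 to 503, which was not tested. In the interaction of gate and bowel part, 7 of 50 list genes passed, 14% beside 9.55% of all genes, 3 higher (Sdc4 and Marveld1 among them) and 4 lower (Cldn15, Pard6g, Jup and Amotl1).

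**Figure D5:**
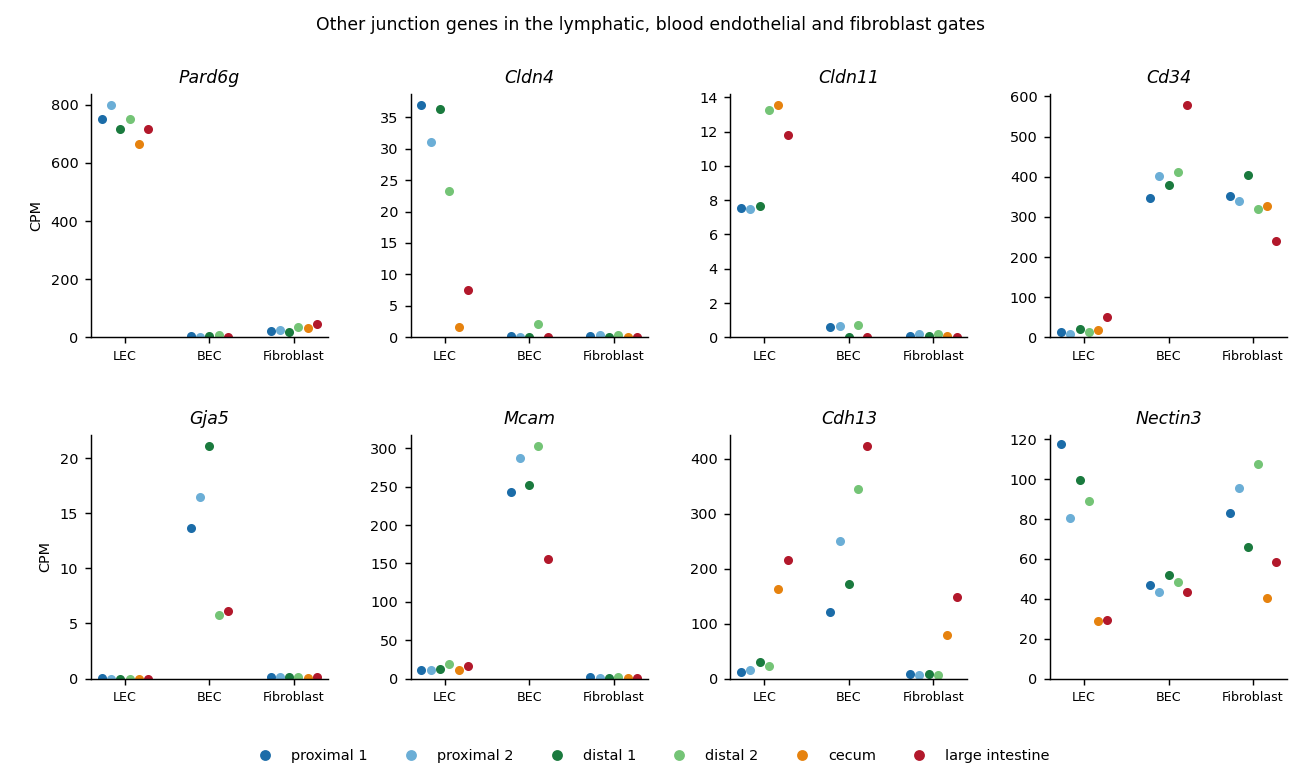
Levels of 8 of the named junction genes outside the 10 members in LECs, BECs and fibroblasts, in CPM on linear axes from 0, with a point for each library. Pard6g, Cldn4 and Cldn11 stand in LECs and Gja5 and Mcam in BECs, Cd34 in BECs and fibroblasts, and Cdh13 in LECs is highest in the cecum and the large intestine.

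Outside the endothelium the members had their own places. Mural cells held Esam at 206 to 326 CPM, Jam3 at 55.7 to 128.5 and Tjp1 at 92.5 to 153, so the BEC-leaning Esam and Jam3 were shared with the cells around blood vessels. Glia, with at least 20 cells in 3 libraries, held Jam3 at 64.2 to 94.2 and no Esam. F11r and Pecam1 were found in myeloid cells of 4 libraries, at 91.3 to 145 and 183 to 316. Pecam1 was also found in T cells or ILCs at 254 to 345 and in B or plasma cells at 84.9 to 240. Epithelial cells passed the minimum of 20 only in the large intestine, with 39 cells, and there Ocln was 185.4 and Cgn 61.4, against at most 0.212 and 0.846 in LECs. In the LECs of that same library neither gene had a UMI, which allows up to 1.74 by the same bound as for Jam2. The same epithelial cells also held F11r, at 194.

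The genes whose levels ran most like those of 4 members were sought over the 41 sums of library and gate, which share libraries and depth, so the correlations of log2(CPM + 1) are a description. Closest to Cdh5 were Sox18 (r = 0.970), Kdr (0.966), Tal1 (0.965), Podxl (0.961) and Shank3 (0.960), and of the members Cldn5 (0.883), F11r (0.743) and Pecam1 (0.734). Closest to Cldn5 were Wscd1 (0.957), Wipf3 (0.941), Btnl9, Tll1 and Gpihbp1 (0.938 each), the last a BEC gate marker whose mean was higher in LECs here. Jam3 ran with Igfbp7 (0.928), Syne2 (0.913) and Adamts1 (0.907), and Ocln with Gpr15lg (0.934), Ms4a8a (0.922) and Tmem171 (0.920). With the remaining members the r of Cdh5 was 0.531 for Tjp1, 0.433 for Esam, 0.280 for Jam2, 0.273 for Jam3, −0.031 for Ocln and −0.186 for Cgn.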

How the data were processed

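Droplet single-cell RNA sequencing (3′ chemistry) was done on sorted tdTomato+ cells of 6 intestinal libraries. Raw UMI counts per gene and barcode were made by the authors with Cell Ranger on the mouse genome extended by tdTomato (8.1.0 in the submitters' processing notes, with genome mm 39), and these counts were deposited for all barcodes. Their doublet calls, free RNA correction and clustering are not part of the deposited counts and were not used here.

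After the study's limits, a cell needed 1000 to 7500 detected genes, a depth of 2500 to 40000 UMIs and a mitochondrial share below 10%. Doublets were called per library with Scrublet in scanpy 1.11.5 at an expected 0.8% per 1000 cells, which removed 4.91 to 11.4% of cells. A cell belonged to a gate when it had UMIs of at least 5 of 6 markers for LECs and fibroblasts, 4 of 6 for BECs and mural cells and 3 of 6 for the other classes, and passed no other gate. The exception was a cell that passed both the mural and the fibroblast gate. Without a Pdgfra UMI, such a cell was not counted as a fibroblast and could stay in the mural gate. These minimums were set from marker counts only, and 93.6 to 96.6% of cells fell in a single gate. UMIs were summed per library and gate, and sums of under 20 cells were left out of tests. Sums were tested with the quasi-likelihood F test of edgeR 4.0.16 (R 4.3.3) after TMM scaling and filterByExpr with a minimum count of 10, with library as a block between gates, and p-values were adjusted over all genes by Benjamini-Hochberg at 0.05. Errors (SE) are the absolute fitted log2 difference divided by the square root of its F statistic. They are errors of the fit, not the observed spread of a gene between libraries. The fits were tested on simulated data with 200 genes changed 2-fold among 11912 to 19559. Of these they recovered 55.0% between LECs and fibroblasts, 53.5% between BECs and fibroblasts, 71.0% between LECs and BECs, 58.0% between distal and proximal LECs, 53.0% between the bowel parts and 25.0% in the interaction. False calls made up 5.98, 23.6, 10.1, 12.8, 2.75 and 9.09% of the calls in the same order. In the data 55.9 to 66.3% of genes differed between gates, a far larger share than was changed in the simulation. The simulated recovery and false calls therefore need not hold for the comparisons between gates. Free RNA is the composition of barcodes with at most 100 UMIs.

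Alternatives were DESeq2 1.42.0, limma 3.58.1, total UMI scaling, no count filter, free RNA subtraction (10% of each sum), no doublet removal, removal of cells with several hashtags, other gate minimums, a fit within a hashtag set and leaving out each library. Promoters came from GRCm39 with GENCODE vM39, the motif search covered both strands, and Python 3.11.15 with numpy 2.4.6, scipy 1.17.1, pandas 2.3.3 and matplotlib 3.10.9 was used. Named genes were the 10 members in every comparison, and of the 56 listed junction genes up to 4 per direction with the largest difference among those that passed and whose libraries did not overlap. Genes most like Cdh5, Cldn5, Jam3 and Ocln were the 5 with the highest Pearson r each. The members and lists were chosen with earlier results of these data known. Some named items are not reported here.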

Additional observations from a re-analysis of the deposited data

Results flagged for a closer look

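For 5 genes the LEC difference from fibroblasts itself differed between the large bowel and the small intestine, by edgeR's interaction test over 6 libraries. The values, large bowel minus small intestine on the log2 scale, were 3.38 for Cldn5 (SE 0.55, adjusted p = 0.00762), 3.55 for Esam (SE 0.47, adjusted p = 0.00295), −0.95 for F11r (SE 0.18, adjusted p = 0.0135), 1.54 for Jam3 (SE 0.27, adjusted p = 0.0106) and 1.60 for Pecam1 (SE 0.20, adjusted p = 0.00251). Among all genes tested 9.55% passed. For Esam, Jam3 and Cldn5 the LEC level itself was higher in both large bowel libraries than in any small intestinal library. The fibroblast level of Cldn5 was also lower in both large bowel libraries than in any small intestinal library. For Pecam1 the LEC levels did not pass the test between bowel parts, and the fibroblast level was lower in both large bowel libraries than in any small intestinal library. For F11r the LEC levels of the bowel parts overlapped, and the fibroblast level was higher in the cecum and the large intestine than in any small intestinal library. Free RNA of Cldn5 and Pecam1 was lower in both large bowel libraries than in any small intestinal library, and its part in these differences was not tested beyond the subtraction described with the alternatives.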

How the results depend on the processing

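Between LECs and BECs 127 of 128 values of the members under the alternatives kept their direction and their side of the threshold, against fibroblasts 135 of 136 for LECs and 132 of 132 for BECs, and between the bowel parts 124 of 127. The exceptions of these comparisons stand beside their results. The sizes of called members moved by over 1.5 times with free RNA subtracted or, for Cldn5 and Tjp1 between LECs and BECs, with a stricter gate or no count filter, and stand beside the results too. The interaction of gate and bowel part was the least stable. With free RNA subtracted the fitted Pecam1 value reversed to −6.70, and Cdh5, which had not passed, was −0.65. Fibroblast Pecam1 was then 0 in 5 libraries and Cdh5 in 6, so these values give no size. Cdh5 passed under DESeq2 (2.38, adjusted p = 0.00469), with no filter on low counts (2.25, adjusted p = 0.0287), with a stricter gate (2.33, adjusted p = 0.0413), without distal 1 (2.63, adjusted p = 0.00996) and without distal 2 (1.84, adjusted p = 0.0356). Jam2 passed when LECs with blood endothelial or mural marker UMIs were left out (−9.82, adjusted p = 0.0469).

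The count of genes that differed between distal and proximal LECs was 0 and became 31 with DESeq2, 159 with no filter and 1 with free RNA subtracted. Leaving out each library gave 0 to 76, with 76 without proximal 1, 4 without proximal 2 and 28 without distal 1. The 2767 genes of the large bowel comparison became 1557 within the hashtag set, and 1114 to 3693 when each library was left out, with 1755 without proximal 1, 1114 without the cecum and 1429 without the large intestine. For the interaction, 1894 became 725 to 1925, with 1199 without proximal 1, 1083 without the cecum and 725 without the large intestine. Fewer libraries entered these fits. The mean share of LECs with a UMI of a member fell from 44.0% to 32.2% when cells were thinned to 2500 UMIs, which removes counts by construction.

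The 2 proximal and 2 distal libraries share replicate numbers, which the labels do not tie to a shared day or animal. With the replicate number as a block 221 genes differed between distal and proximal LECs, in place of 0, and none of the 8 members did. The replicate differences of the regions correlated with r = 0.268 across 15288 genes in 2 pairs, and the cause of the rise was not tested.

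Few UMIs limit what can be read of Cgn, Ocln and Jam2 in LECs, and 221 and 247 LECs stand behind the cecal and large intestinal values. The cecum and the large intestine have 1 library each and cannot be told apart from their libraries. Each library is a pool of hashtagged preparations. The gates rest on marker UMIs. The cells were sorted on tdTomato, but the paper also removed contaminant clusters by their tdTomato transcript, a step not applied here. The gates, among them 1168 BECs, 781 B or plasma cells and 54 epithelial cells, can therefore hold cells without the reporter. By flow cytometry the paper described its reporter-positive CD31+ cells as LECs, and whether the BECs here carry the reporter was not tested.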
